A study of Mus musculus with 8 samples.

Results

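Of the 4450 probes on the array that are named by a chromosome location and a strand instead of a transcript accession, 2708 (60.9%) were members of the group described here. A member was a non-control probe with such a name that was flagged well above background on both arrays of at least 1 of the 4 groups. Of these, 6 had outlier flags on all their spots on at least 1 array and were left out, so 2702 of the 37649 features tested were location-named. These 2702 probes carry 2515 names, each a location with a strand, at 2116 locations, with 1350 probes for the forward and 1352 for the reverse strand. The stretch a name spans had a median of 11.3 kb, with quartiles of 2.85 and 26.9 kb. The label of these probes as intergenic was not checked, because no gene annotation of build mm9, the build in the file headers, was used here.

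The study compared cells from the abdominal subcutaneous fat of male C57BL/6 mice that were 6 weeks old at the start. The cells stuck to plastic after collagenase digestion, went through 2 or 3 passages and are called mesenchymal stem cells by the labels. The groups were control chow for 12 weeks (C12), a diet with 60% fat for 12 weeks (HF12), control chow for 24 weeks (C24) and the fat diet for 24 weeks (HF24), with 2 arrays each. The labels call the 12-week groups young and the 24-week groups old, and do not say whether the 2 arrays of a group came from separate mice, so a p-value here reflects array-to-array spread that may be technical only.

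Mammalian genomes are transcribed well beyond their protein-coding genes. Long intergenic non-coding RNAs are spliced, capped transcripts from the stretches between genes; most are less abundant than messenger RNAs and many are expressed in few cell types. Some regulate nearby genes or scaffold chromatin complexes, while for most no role is known, and none can be read from a location name. The comparison class was the NM_ probes, which target the curated messenger RNAs of RefSeq.

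All 8 arrays lay on 1 slide and were read in 1 scan, with the 12-week arrays in the upper row, the 24-week arrays in the lower row and each diet in its own columns, so slide position cannot be told apart from time or diet. The median processed intensity of an array was between 90.1 and 111, and no spot was saturated. Values below are levels, log2 of the processed intensity minus the 75th percentile of the same array, so a level of 0 is that percentile. Of 10 stromal markers, 9 were in the fit and all 9 were well above background in every group, while the summed level of 10 macrophage markers, in multiples of each array's 75th percentile, ran from 38.5 to 38.8 in C12, 276 to 278 in HF12, 96.1 to 98.8 in C24 and 212 to 217 in HF24. The sum of 7 adipocyte markers ran from 788 to 801 in C12, 120 to 126 in HF12, 46.9 to 47.5 in C24 and 50.5 to 52.8 in HF24, and that of 5 skeletal muscle markers from 112 to 116, 79.5 to 84.7, 38.1 to 39.0 and 8.62 to 8.71. In such bulk RNA, fewer cells of a type and less RNA per cell cannot be told apart.

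Location-named probes were detected less often than NM_ probes on every array, and less often at 24 than at 12 weeks. On the C12 arrays 60.7% and 58.9% of the 4450 were well above background, and on the HF12 arrays 62.6% and 60.2%. The C24 arrays gave 50.5% and 54.0%, and the HF24 arrays 46.6% and 49.96%. All 4 arrays at 24 weeks were below all 4 at 12 weeks. The NM_ probes, 29638 on the array, showed the same order over a narrower range, from 76.1% to 77.8% at 12 weeks and from 70.8% to 74.1% at 24 weeks. The lowest level flagged as well above background also moved with time, lying between -5.86 and -5.57 on the 12-week arrays and between -5.19 and -4.75 on the 24-week arrays, and its part in these shares was not tested.

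**Figure D1:**
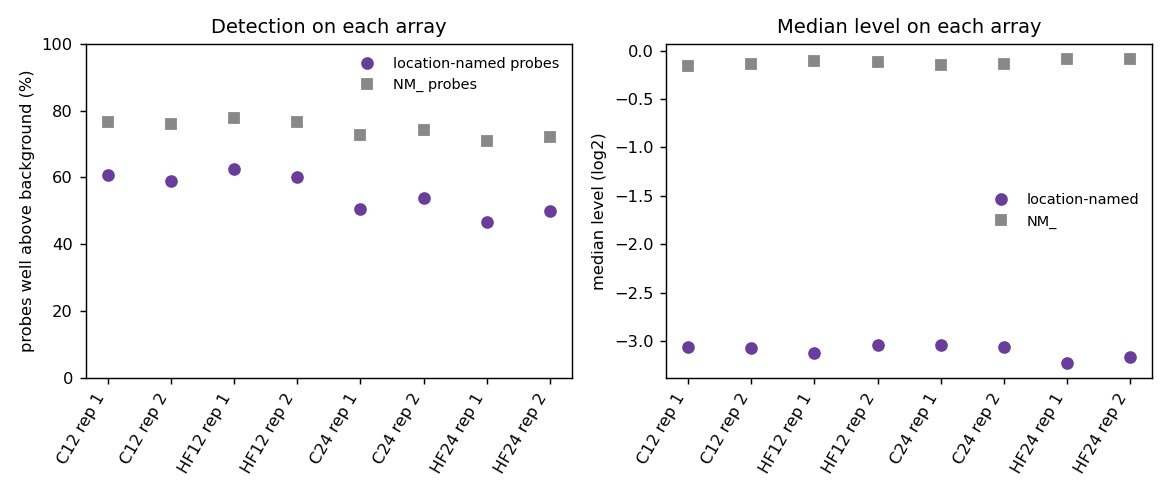
The left panel plots, for each of the 8 arrays, the percentage of all location-named probes (circles) and of all NM_ probes (squares) flagged well above background. The right panel plots the median level of the members and of the NM_ probes in the fit (log2, relative to the array's 75th percentile). Detection of location-named probes was at least 58.9% at 12 weeks and at most 54.0% at 24 weeks, while the medians of the classes stayed between 2.90 and 3.14 log2 units apart on all arrays.

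Within the fit, 1937 members (71.7%) were well above background on all 8 arrays, against 88.5% of the 22978 NM_ probes. Another 285 members (10.5%) passed only through both 12-week groups, a pattern that 3.69% of the NM_ probes had, and 200 (7.40%) passed in every group but HF24, against 2.69%. HF12 alone brought in 116 members and C12 alone 80, whereas C24 alone brought in 10 and HF24 alone 4. A member that passed through its higher group only had to differ, so counts are given for all members and again for the 1937.

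The members were dim as a class. Their median level over the 8 arrays was -3.13, with quartiles of -4.43 and -1.32, and 386 of them (14.3%) lay at or above 0. The median of the NM_ probes was -0.13, and 48.5% of them lay at or above 0. Replicate arrays differed by a median of 0.14 in C12, 0.13 in HF12, 0.14 in C24 and 0.14 in HF24 for members and of 0.11, 0.08, 0.10 and 0.07 for NM_ probes. Between levels of -4 and -3 these medians were close, at 0.14 for members and 0.15 for NM_ probes in C12 and at 0.18 and 0.16 in HF24. At levels of 0 and above the members differed slightly more, by 0.112 against 0.0959 in C12 and 0.0859 against 0.0615 in HF12, and in both classes the spread was wider at dim levels than at bright ones.

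The gap between the medians of the 2 classes was -2.90 and -2.93 on the C12 arrays, -3.03 and -2.92 on HF12, -2.90 and -2.93 on C24 and -3.14 and -3.08 on HF24. The HF24 arrays had the widest gap and did not overlap those of C24. The pooled SD between replicate arrays was 0.0458. Taken over probes detected on all 8 arrays, the gap was -2.77 and -2.74 in HF24 and -2.48 and -2.52 in C24.

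A few location-named probes gave some of the strongest signals on the array. A_30_P01026458 had levels of 7.68 and 7.68 in C12, 7.77 and 7.81 in HF12, 7.86 and 7.87 in C24 and 8.03 and 7.99 in HF24. It rose by 0.18 (SE 0.05, adjusted p = 0.032) from 12 to 24 weeks on chow and by 0.21 (SE 0.05, adjusted p = 0.020) on the fat diet. A probe for the opposite strand of the same location, A_30_P01025682, lay between 0.86 and 1.26 and rose in the same 2 comparisons by 0.25 and 0.23. The next brightest, A_30_P01030669, A_30_P01022075 and A_30_P01020570, lay between 7.14 and 7.86 on all arrays and had no change above 0.21 in size in any comparison. Another probe of the name of A_30_P01020570, A_30_P01020259, lay between -5.60 and -4.73 and was detected on 4 arrays. A probe for its opposite strand, A_30_P01031264, lay between 6.95 and 7.19. A_30_P01021243, which is printed in 10 spots, was at 7.18 and 7.16 in C12 and at 7.83 and 7.83 in HF24, and HF24 was above both HF12, by 0.68 (SE 0.06, adjusted p = 0.00051), and C24, by 0.28 (SE 0.06, adjusted p = 0.018).

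One location held 5 members and 15 held 4, and the 5-member location and the 2 brightest of the 15 are described here. At the first, of 13.0 kb, 4 forward probes had group means from about 1.40 down to -4.59 in C12. A_30_P01020719 was called higher in all 4 comparisons, from 1.32 and 1.49 in C12 to 2.41 and 2.37 in HF24, whereas A_30_P01028394, A_30_P01028898 and A_30_P01032951 of the same name, and A_30_P01031642 of the opposite strand, were called in none. At the second, of 14.6 kb, the forward probes A_30_P01025234, A_30_P01027478 and A_30_P01031757 lay between 4.07 and 5.78 on all arrays, and the reverse probe A_30_P01029977 between -0.98 and -0.46. None of these 4 was called in any comparison. At the third, of 17.4 kb, the reverse probes A_30_P01017895, A_30_P01021838 and A_30_P01031526 moved together and are described with the diet comparisons, while the forward probe A_30_P01032721 was called in none.

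The comparison of HF12 with C12 asks how the cells differed after 12 weeks of fat diet. There 208 members (7.70%) were higher and 303 (11.2%) were lower at an adjusted p under 0.05, the threshold for every call here. Over all features 14.1% were called higher and 16% lower, 30.1% in all. Members were thus called less often than the background in both directions. Among NM_ probes 16.3% were higher and 16.4% lower. The median log2 change was -0.02 over members, -0.00214 over NM_ probes and -0.02 over all features. A change of 2-fold or more was called upward for 57 members (2.11%) and downward for 34 (1.26%), against a background of 4.04% and 3.03%. Of the 1937 members detected everywhere, 157 (8.11%) were higher and 238 (12.3%) lower, against 14.9% and 16.5% of all features detected everywhere. The count of 511 rested partly on single arrays: it was 308 when C12 replicate 1 was left out, 291 when HF12 replicate 1 was and 322 when HF12 replicate 2 was. The lean towards lower calls was not kept without HF12 replicate 1 (149 higher and 142 lower) or without C12 replicate 2 (215 and 213).

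Among the 5 largest measured rises on the fat diet at 12 weeks were those of A_30_P01017482, A_30_P01020239 and A_30_P01024579. A_30_P01017482, on the reverse strand of a 5.70 kb location, had levels of -3.14 and -3.19 in C12, -0.54 and -0.49 in HF12, -2.34 and -2.29 in C24 and -0.97 and -0.97 in HF24. Both fat-diet groups were above both chow groups. HF12 was above C12 by 2.65 (SE 0.06, adjusted p = 2.2e-06) and HF24 above C24 by 1.35 (SE 0.06, adjusted p = 8.8e-05). Its groups stood in the order HF12, HF24, C24, C12, as did the summed macrophage markers given above; whether the 2 are related was not tested.

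A_30_P01024579 and A_30_P01020239 carry 1 name, on the reverse strand of an 8.69 kb location. A_30_P01024579 was at -3.59 and -3.56 in C12, -0.99 and -0.996 in HF12, -2.78 and -2.79 in C24 and -2.75 and -2.61 in HF24. HF12 stood apart from the other 3 groups, and the rise was 2.58 (SE 0.07, adjusted p = 3.3e-06) at 12 weeks against 0.11 (SE 0.07, adjusted p = 0.26) at 24 weeks. A_30_P01020239 gave 2.68 (SE 0.17, adjusted p = 0.00012) and 0.27 (SE 0.17, adjusted p = 0.27), so both probes of the name gave the same pattern.

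A_30_P01019442 and A_30_P01031842 completed the 5 largest measured rises, at 2.36 and 2.50, but their C12 arrays were far apart. A_30_P01019442 was at -2.82 and -4.63 in C12 and at -1.78 and -0.94 in HF12, with an adjusted p of 0.031, and A_30_P01031842 at -3.15 and -4.88 and at -1.93 and -1.08, with 0.027. Both calls were lost when C12 replicate 2, HF12 replicate 1 or HF12 replicate 2 was left out, and over 17 alternatives the adjusted p ran from 0.0027 to 0.142 for the former and from 0.00229 to 0.128 for the latter. For 2 members only a bound can be given because C12 was not well above background. A_30_P01021359 was at least 10.1-fold and A_30_P01028951 at least 7.19-fold higher in HF12. A_30_P01021359 had levels of -2.24 and -2.39 in HF12, -3.86 and -3.76 in C24 and -3.41 and -3.52 in HF24, so C12 alone stood at the background.

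The largest fall on the fat diet at 12 weeks was that of A_30_P01028806, forward on a 13.6 kb location. Its levels were 0.16 and 0.03 in C12, -3.14 and -3.17 in HF12, -5.63 and -6.33 in C24 and -6.32 and -6.99 in HF24, the last 4 not well above background. HF12 was below C12, with a log2 change of -3.25 (SE 0.29, adjusted p = 0.00053). C12 was highest and HF12 next, with both above the 24-week groups, which cannot be ranked below background; the summed adipocyte and skeletal muscle markers were likewise highest in C12 and next in HF12. In the adipocyte list 6 of 7 genes fell in HF12, with Adipoq, which encodes the fat-cell hormone adiponectin, changed by -3.33. In the skeletal muscle list 1 of 5 genes was called lower in HF12, Tnnc2 with a change of -0.61, and none was called higher. The part of either cell type in this member's change was not tested.

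The rest of the lowest 5 had C12 as their highest group too. A_30_P01030421 went from -1.31 and -1.34 in C12 to -3.43 and -3.06 in HF12 (change -1.92, SE 0.15, adjusted p = 0.00028). A_30_P01032687 changed by -1.59 (SE 0.07, adjusted p = 2.2e-05), A_30_P01027147 by -1.52 and A_30_P01024287 by -1.52. The 24-week groups of all 4 were below C12 as well. A_30_P01026149 was at least 3.04-fold and A_30_P01017440 at least 1.77-fold lower in HF12, both detected in C12 only.

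At 24 weeks the fat diet went with lower levels of location-named probes much more often than with higher ones. In HF24 against C24, 155 members (5.74%) were higher and 490 (18.1%) lower, against 14% and 17.2% of all features and 31.2% in either direction. Among NM_ probes the split ran the other way, with 17.3% higher and 12.0% lower. Over all features 5265 were higher and 6487 lower, and NM_ probes gave 3984 and 2768. Probes that are neither location-named nor NM_ thus also leaned towards lower calls, so the lean was not particular to members. The median log2 change was -0.03 over members, 0.06 over NM_ probes and 0.02 over all features. The calls of 2-fold or more were 18 upward (0.666%) and 139 downward (5.14%) among members, with 1.44% and 5.19% of all features. Of the 1937 members detected on all 8 arrays, 124 were higher and 354 (18.3%) lower, against 15.5% and 16.2% of all features detected everywhere. Their share of lower calls was thus only slightly above that of all features, while their share of higher calls was well below it. Without C24 replicate 1 the counts over all members were 88 higher and 395 lower.

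The lean of the members towards lower calls depended on how arrays were scaled. With quantile normalization in place of the 75th percentile, 258 members were higher and 385 lower, and with normexp background correction and quantile normalization 271 and 373, while NM_ probes were 3978 and 2639, and 4223 and 2824. With the percentile taken over NM_ probes only, 96 members were higher and 601 lower, and NM_ probes were 2519 and 3857. Members were called lower more often than higher under each of these, but the median log2 change of members minus that of NM_ probes went from -0.0928 to -0.00454 with quantile normalization and -0.0119 with normexp.

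Among probes of like level, members were called higher less often than NM_ probes in every bin, but called lower more often only from -4 upward. Between mean levels of -6 and -5, 2.73% of members were higher in HF24 and 14.2% lower, while 6.16% and 15.1% of NM_ probes were, and between -5 and -4 the shares were 3.8% and 13.8% against 7.76% and 15.3%. These 2 bins hold 330 and 579 members. Between mean levels of -3 and -2, 4.36% of 390 members were higher in HF24 and 25.1% lower, while 13.3% and 16.9% of 2104 NM_ probes were. Between -2 and -1 the shares were 6.80% and 23.3% for members and 17.8% and 14.9% for NM_ probes. At levels of 0 and above the members were nearly balanced, with 13.2% higher and 11.9% lower against 21.1% and 8.87% of NM_ probes.

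**Figure D2:**
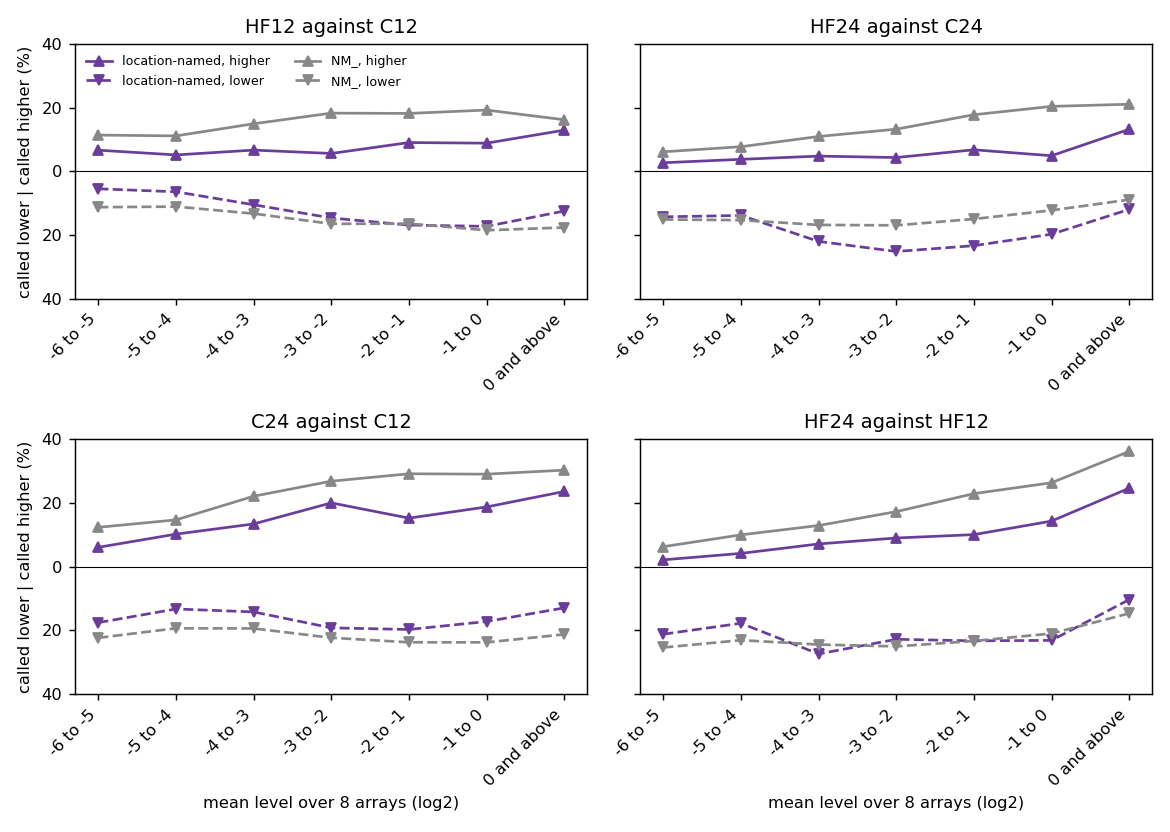
Each panel is 1 comparison, and the horizontal axis bins probes by mean level over the 8 arrays (log2, relative to the 75th percentile), leaving out levels below -6. Upward triangles above the zero line give the percentage of a bin called higher and downward triangles below it the percentage called lower, in purple for members and grey for NM_ probes. In HF24 against C24, 4.36% of members between -3 and -2 were called higher and 25.1% lower, while in HF12 against C12 the lower calls of both classes were close at most levels above -3.

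The 4 members with the deepest measured falls in HF24 were high in C24 alone. A_30_P01022510, on the forward strand, had levels of -3.03 and -3.24 in C12, -3.27 and -3.06 in HF12, -0.21 and -0.22 in C24 and -3.05 and -2.85 in HF24. C24 was far above the other 3 groups, which overlapped; HF24 was below C24, with a log2 change of -2.73 (SE 0.12, adjusted p = 9e-05). A_30_P01027893, in a location within 50 kb on the same strand, ran from -1.68 to -0.89 in C12, HF12 and HF24 and was at 1.32 and 1.25 in C24, with a change of -2.18 (SE 0.09, adjusted p = 9.3e-05).

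A_30_P01027500 and A_30_P01024275 are neighbours on another reverse strand. A_30_P01027500 was at -5.16 and -5.09 in C12, -4.24 and -4.22 in HF12, -1.10 and -1.03 in C24 and -3.59 and -3.31 in HF24, so every group stood apart. HF24 was below C24, with a log2 change of -2.39 (SE 0.10, adjusted p = 9e-05), and A_30_P01024275 gave -2.10 (SE 0.20, adjusted p = 0.0009). C24 was also where 3 of 4 keratinocyte markers were highest: Krt14, a keratin of basal epidermal cells, was at 1.46 and 1.43 in C24 and between -4.43 and -1.75 elsewhere, while Trp63 lay between 1.62 and 2.15 throughout. The part of epidermal cells in these 4 members was not tested.

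A_30_P01019232, the fifth, stepped down over the groups. It was at -0.35 and -0.52 in C12, -1.02 and -0.99 in HF12, -2.27 and -2.35 in C24 and -4.32 and -4.004 in HF24. HF24 was below C24, with a log2 change of -1.85 (SE 0.12, adjusted p = 0.00027). All 5 skeletal muscle markers fell in the same comparison, Myog, the myogenic transcription factor myogenin, by -1.76 and Tnnc2, the troponin C of fast fibres, by -2.41. So did all 4 Schwann cell markers, 5 of 7 adipocyte, 3 of 4 keratinocyte and 3 of 9 stromal markers. In turn, 9 of 10 macrophage, 4 of 5 endothelial and 1 of 9 stromal markers rose. Both the skeletal muscle and the adipocyte list had this member's order of groups by mean log2 level. The part of any cell type was not tested. A_30_P01018170 was detected in C24 only, at -2.89 and -2.96, and was at least 3.77-fold lower in HF24. A_30_P01030091 was at least 3.85-fold lower, with C24 arrays at -2.12 and -3.67.

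The highest measured member at 24 weeks was A_30_P01017482, described above. After it came A_30_P01033650, A_30_P01031581, A_30_P01021715 and A_30_P01019507, with changes between 1.25 and 1.27. A_30_P01033650 was at -0.70 and -0.75 in C12, -1.38 and -1.27 in HF12, -2.69 and -2.85 in C24 and -1.51 and -1.49 in HF24, a rise of 1.27 (SE 0.08, adjusted p = 0.00025) towards a level still below C12. A_30_P01021715 likewise had its lowest level in C24. A_30_P01019006, which carries the same name as A_30_P01033650 and was detected on all 8 arrays, changed by 0.00398 (SE 0.12, adjusted p = 0.98) in HF24 against C24. The rise of A_30_P01033650 thus belonged to 1 probe of the name. A_30_P01019507 was highest in HF24, at 0.07 and 0.11 against -1.40 and -0.92 in C24. The rise of A_30_P01031581 (adjusted p = 0.017) was lost when either C24 array or HF24 replicate 1 was left out, and its adjusted p ran from 0.00167 to 0.0693 over 18 alternatives.

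A_30_P01030160 was detected in HF24 only. Its levels were -7.80 and -7.66 in C12, -6.55 and -6.55 in HF12, -5.95 and -7.30 in C24 and -2.003 and -1.29 in HF24, and it was at least 10.8-fold higher than in C24 (adjusted p = 0.00077). A second probe of the same name, A_30_P01024326, lay between -3.09 and -2.73 on all 8 arrays and was called in no comparison, so the rise belonged to 1 probe of the name. A_30_P01020933, at least 2.50-fold higher in HF24, had HF24 arrays at -3.07 and -4.43, and its call (adjusted p = 0.035) was lost under 8 of 17 alternatives, with an adjusted p from 0.0109 to 0.134; these include leaving out any of the 12-week arrays, C24 replicate 2 or HF24 replicate 1.

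**Figure D3:**
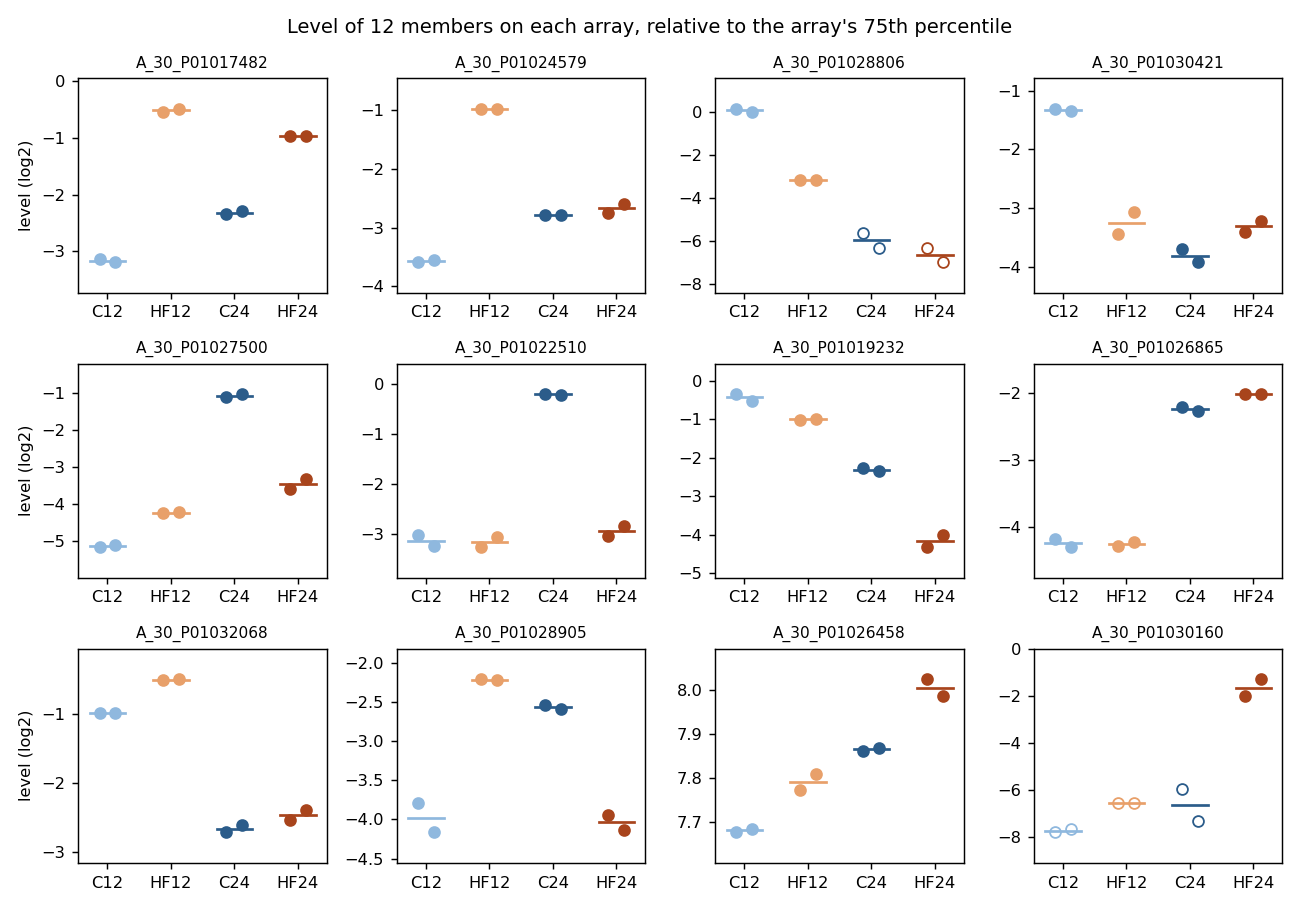
Each panel is 1 member, with its level on each array (points) and the group mean (bars) for C12, HF12, C24 and HF24, in log2 units relative to the array's 75th percentile; filled points are flagged well above background and open points are not. A_30_P01017482 was high on the fat diet at both times, A_30_P01022510 and A_30_P01027500 were high in C24, A_30_P01028806 and A_30_P01030421 in C12, and A_30_P01030160 was detected in HF24 only, at -2.003 and -1.29.

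The diet comparisons at 12 and 24 weeks share no array. Members lower at both times numbered 139, which is 45.9% of those lower at 12 weeks and 28.4% of those lower at 24 weeks, and 36 were higher at both, which is 17.3% and 23.2% of those higher. Of the NM_ probes, 1066 were lower at both (28.3% and 38.5%) and 1476 higher at both (39.4% and 37.0%). In the opposite sense, 28 were higher at 12 and lower at 24 weeks and 33 the reverse, against 285 and 493 NM_ probes. The 3 reverse-strand probes of the 17.4 kb location were among the 139: A_30_P01017895 was at 3.59 and 3.52 in C12, 3.07 and 3.04 in HF12, 3.55 and 3.51 in C24 and 3.17 and 3.19 in HF24. Its chow arrays lay above its fat-diet arrays at both times, with changes of -0.50 (SE 0.06, adjusted p = 0.0015) and -0.35 (SE 0.06, adjusted p = 0.0059). A_30_P01021838 changed by -0.40 and -0.45 and A_30_P01031526 by -0.40 and -0.35.

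From 12 to 24 weeks on chow, members moved in both directions about equally. In C24 against C12, 402 (14.9%) were higher and 436 (16.1%) lower, against 24.6% and 21.1% of all features and 45.7% in either direction. NM_ probes were called more often, 26.9% higher and 21.8% lower. The median log2 change was 0.00387 over members, 0.04 over NM_ probes and 0.03 over all features. Changes of 2-fold or more were called for 69 members (2.55%) upward and 136 (5.03%) downward, where the background was 4.56% and 5.94%. Among members detected everywhere, 334 (17.2%) were higher and 291 (15.0%) lower, against 27.2% and 20.5% of all features detected everywhere. The lean towards lower calls thus came from members that were not detected in every group. With no filter on dim probes, 897 of 4436 location-named probes were higher and 463 lower, a setting that also moved the median change of all features by 0.12.

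The highest members were those described as high in C24. A_30_P01027500 rose by 4.06 (SE 0.10, adjusted p = 5.3e-06), A_30_P01024275 by 3.31, A_30_P01022510 by 2.92 and A_30_P01027893 by 2.83. A_30_P01023276, on a 51.7 kb location, rose by 2.36 (SE 0.12, adjusted p = 4.4e-05), from -2.71 and -2.76 to -0.27 and -0.48, and was also up on the fat diet, at -2.51 and -2.25 in HF12 and -1.02 and -0.87 in HF24. A_30_P01018170 was at least 6.59-fold and A_30_P01022451 at least 5.85-fold higher in C24 than in C12.

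The lowest were members with C12 as their highest group. A_30_P01030421 changed by -2.48 (SE 0.15, adjusted p = 8.1e-05), A_30_P01018166 by -2.46, A_30_P01032687 by -2.36, A_30_P01032682 by -2.17 and A_30_P01024596 by -2.13. A_30_P01032687 was at -0.85 and -0.87 in C12, -2.39 and -2.52 in HF12, -3.22 and -3.23 in C24 and -2.94 and -3.02 in HF24. In the first 4 of the 5 the groups stood in the order C12, HF12, HF24, C24. The summed adipocyte markers had that order too, but at 24 weeks the sum was mostly that of Fabp4. Fabp4 was at 5.51 and 5.53 in C24 and 5.64 and 5.71 in HF24, a change that was not called (0.15, adjusted p = 0.12). Of the 7 adipocyte genes, 5 were called lower in HF24 than in C24 and none higher, and their mean log2 level was lower in HF24. A_30_P01024596, from -0.31 and -0.44 in C12 to -3.55 and -3.78 in HF24, had the order C12, HF12, C24, HF24. The summed skeletal muscle markers had that order, as had the mean log2 level of the adipocyte markers. Of the 5 skeletal muscle markers 1, Tnnc2, was called lower in HF12 than in C12. The part of either cell type was not tested. A_30_P01028806 was at least 35.9-fold and A_30_P01026149 at least 1.92-fold lower in C24.

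On the fat diet the time comparison leaned towards lower calls. In HF24 against HF12, 258 members (9.55%) were higher and 559 (20.7%) lower, against 22.1% and 22.9% of all features and 45.1% in all. NM_ probes were 26.5% higher and 19.3% lower. Over all features 8336 were higher and 8634 lower, and NM_ probes gave 6097 and 4442. Probes of the other classes thus leaned towards lower calls too. The median log2 change was -0.07 over members, 0.05 over NM_ probes and -0.00203 over all features. At least 2-fold, 25 (0.925%) were higher and 157 (5.81%) lower, with 2.35% and 6.62% of all features. Of members detected everywhere, 238 (12.3%) were higher and 369 (19.1%) lower, against 25.6% and 21.0% of all features detected everywhere. Quantile normalization gave 330 and 414 and normexp 349 and 402, whereas the percentile over NM_ probes gave 183 and 703. With no filter on dim probes the split turned, to 854 higher and 549 lower of 4436. The count of 817 was 541 without HF12 replicate 2 (184 higher and 357 lower), and without HF12 replicate 1 the split was 135 and 416.

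The 3 members with the largest rise carry 1 name, on the reverse strand of a 2.89 kb location, and rose on both diets. A_30_P01026865 was at -4.17 and -4.29 in C12, -4.27 and -4.22 in HF12, -2.21 and -2.27 in C24 and -2.02 and -2.02 in HF24. All arrays at 24 weeks were above all at 12 weeks, by 2.22 (SE 0.07, adjusted p = 1.1e-05) on the fat diet and 1.99 (SE 0.07, adjusted p = 1.2e-05) on chow. A_30_P01027749 gave 2.08 and 1.96 and A_30_P01024217 2.30 and 1.73. A_30_P01019184 rose by 1.55 (SE 0.08, adjusted p = 8.7e-05) and by 1.26 on chow. A_30_P01019709, with HF24 arrays at -1.86 and -3.34, rose by 1.84 (adjusted p = 0.022), a call lost without either HF12 array and with only the compared groups in the fit, with an adjusted p from 0.00184 to 0.0909 over 18 alternatives.

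The lowest was A_30_P01019232, by -3.16 (SE 0.12, adjusted p = 2.4e-05), followed by A_30_P01031350, its neighbour on the same strand, by -2.76 (SE 0.12, adjusted p = 3.5e-05). A_30_P01031350 was at -1.19 and -1.27 in C12, -1.77 and -1.68 in HF12, -2.99 and -2.84 in C24 and -4.33 and -4.64 in HF24, the same course as its neighbour. A_30_P01031197 changed by -2.02, A_30_P01025657 by -1.98 and A_30_P01032068 by -1.96. A_30_P01032068 was at -0.99 and -0.99 in C12, -0.51 and -0.50 in HF12, -2.72 and -2.61 in C24 and -2.54 and -2.39 in HF24. Its fat-diet arrays also lay above its chow arrays at both times, by 0.48 (SE 0.07, adjusted p = 0.0050) at 12 weeks and by 0.20 (SE 0.07, adjusted p = 0.093) at 24 weeks. A_30_P01019442 and A_30_P01029543, not detected in HF24, were at least 11.1-fold and at least 6.09-fold lower there.

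The time comparisons on the 2 diets also compare different arrays but use the same estimate of a probe's spread. On both diets 223 members were lower at 24 weeks, which is 51.1% of those lower on chow and 39.9% of those lower on the fat diet, and 139 were higher on both, which is 34.6% and 53.9%. Of the NM_ probes, 2279 were lower on both (45.5% and 51.3%) and 3374 higher on both (54.6% and 55.3%). Opposite calls were uneven in both classes, with 68 members higher on chow and lower on the fat diet and 4 the reverse, against 843 and 435 NM_ probes.

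The change with diet differed between 12 and 24 weeks for 497 members, tested as the interaction, which is the diet change at 24 weeks minus that at 12 weeks. It was above 0 for 153 (5.66%) and below 0 for 344 (12.7%), against 12.7% and 15.2% of all features and 27.9% in all. The NM_ probes gave 15.0% and 13.5%. Over all features 4774 were above 0 and 5726 below, and NM_ probes gave 3436 and 3105. Probes of the other classes thus also leaned below 0. Calls of at least 1 log2 unit numbered 51 above 0 (1.89%) and 142 below (5.26%) among members, against 3.22% and 6.52% of all features. Of the members detected everywhere, 119 (6.14%) were higher and 245 (12.6%) lower, against 13.5% and 14.9% of all features detected everywhere. Without HF12 replicate 1, 90 members were above 0 and 254 below. Quantile normalization gave 229 and 277, and normexp 230 and 264.

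Of the members detected on all 8 arrays, A_30_P01027500 (-3.28), A_30_P01028905 (-3.23) and A_30_P01022510 (-2.71) had the lowest interaction and A_30_P01019709 (2.44), A_30_P01030421 (2.42) and A_30_P01028975 (1.90) the highest. A_30_P01028905 went opposite ways, at -3.79 and -4.16 in C12, -2.21 and -2.22 in HF12, -2.55 and -2.59 in C24 and -3.94 and -4.13 in HF24. On the fat diet it changed by 1.76 (SE 0.13, adjusted p = 0.00027) at 12 weeks and by -1.47 (SE 0.13, adjusted p = 0.00077) at 24 weeks. A_30_P01028975 was the mirror case, with -0.94 (SE 0.08, adjusted p = 0.00059) and 0.96 (SE 0.08, adjusted p = 0.00072). A_30_P01029403, of the same name and detected on 6 arrays, changed by -0.45 (SE 0.18, adjusted p = 0.11) and 0.97 (SE 0.18, adjusted p = 0.010). Only the change at 24 weeks was thus called in both probes. The interaction of A_30_P01019709 (adjusted p = 0.042) was lost without any 1 of the C12, HF12 or C24 arrays and with no filter on dim probes, and its adjusted p ran from 0.00282 to 0.114 over 17 alternatives.

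Several probes of 1 name allow a check within the members. Of the 139 names with 2 probes, 50 had a call in HF24 against C24, and in 10 of these (20%) both probes were called the same way, in none in opposite ways. NM_ accessions with 2 probes, 4324 of them, had both called the same way in 38.8% of 1700. In HF12 against C12 the shares were 30% of 40 names and 46.1% of 1928 accessions. Across the 139 names the changes of the probes correlated with r = 0.752 at 12 weeks and 0.146 at 24 weeks, and across the accessions with 0.805 and 0.670. The median difference between the 2 probes of a name was 0.182 at 12 weeks and 0.230 at 24 weeks. The pair A_30_P01024326 and A_30_P01030160 differed by 4.94 at 24 weeks, and how far r rests on such pairs was not tested. Probes of a name share their arrays and differ in level.

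Calls on both strands of a location seldom coincided. At 399 locations a member was fitted on each strand, and the brighter probe of each strand was compared. In HF24 against C24, 138 had 1 strand called, 14 had both lower, 2 had both higher and 4 had opposite calls. Over all features 31.2% were called there in either direction. Both strands were called the same way in 10.1% of the 158 locations with a call, against 20% of the 50 names with 2 probes and a call. The changes correlated with r = 0.117, and in the other comparisons with 0.158 (HF12 against C12), 0.162 (C24 against C12) and -0.00573 (HF24 against HF12). Probes of 1 name and strand gave 0.146 in HF24 against C24, little above the strands. In the other comparisons they gave 0.752, 0.594 and 0.473, in the same order. Only descriptive use is made of these values, since the points share arrays and scaling.

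**Figure D4:**
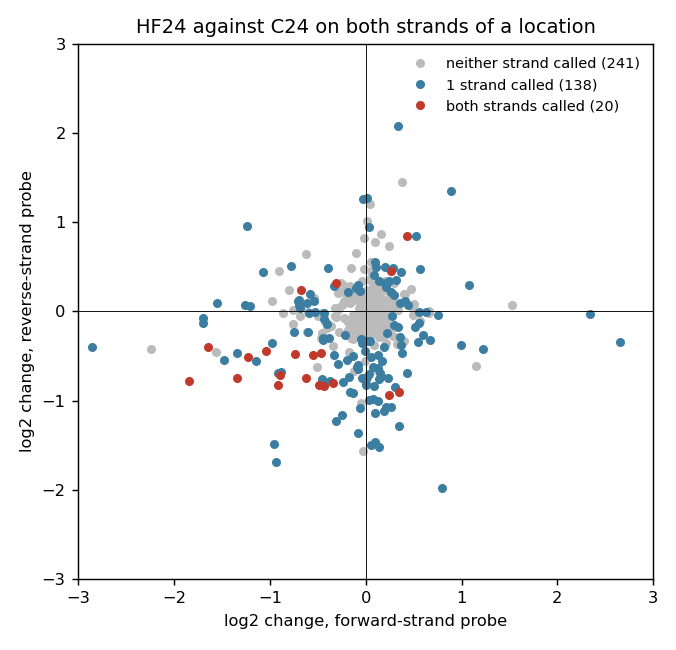
Each point is 1 of the 399 locations with a fitted member on both strands, with the log2 change in HF24 against C24 of the forward-strand probe on the horizontal axis and of the reverse-strand probe on the vertical axis; colours mark locations with neither, 1 or both strands called. Most called locations lie near an axis, and 138 had 1 strand called against 20 with both.

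Neighbouring members sometimes moved as a block. Joining locations at most 50 kb apart, a distance chosen after the data were seen, gave 174 stretches of 3 or more locations with 830 members, and 132 stretches with 4 or more members. In 22 of these at least 75% of the members were called the same way in at least 1 comparison. These stretches were picked by their calls, so their values are a description.

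The stretch with the most members among the 22 held 10, at 7 locations over 147 kb. In HF24 8 of the 10 were lower than in C24 and 9 of the 10 lower than in HF12, against 17.2% and 22.9% of all features. The median change of the stretch was -1.25 in both. A_30_P01020822 was at -1.52 and -1.69 in C12, -1.60 and -1.54 in HF12, -1.35 and -1.33 in C24 and -3.15 and -3.17 in HF24. HF24 lay below all other arrays and was below C24, with a log2 change of -1.82 (SE 0.07, adjusted p = 7.7e-05). A_30_P01032963, on the reverse strand, changed by -1.98 (SE 0.17, adjusted p = 0.00063) and A_30_P01027400 by -0.96 (SE 0.09, adjusted p = 0.001). The exceptions were A_30_P01026499, with HF24 arrays at -5.07 and -2.96, and A_30_P01019278 (-0.93, SE 0.38, adjusted p = 0.11), both near the background.

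**Figure D5:**
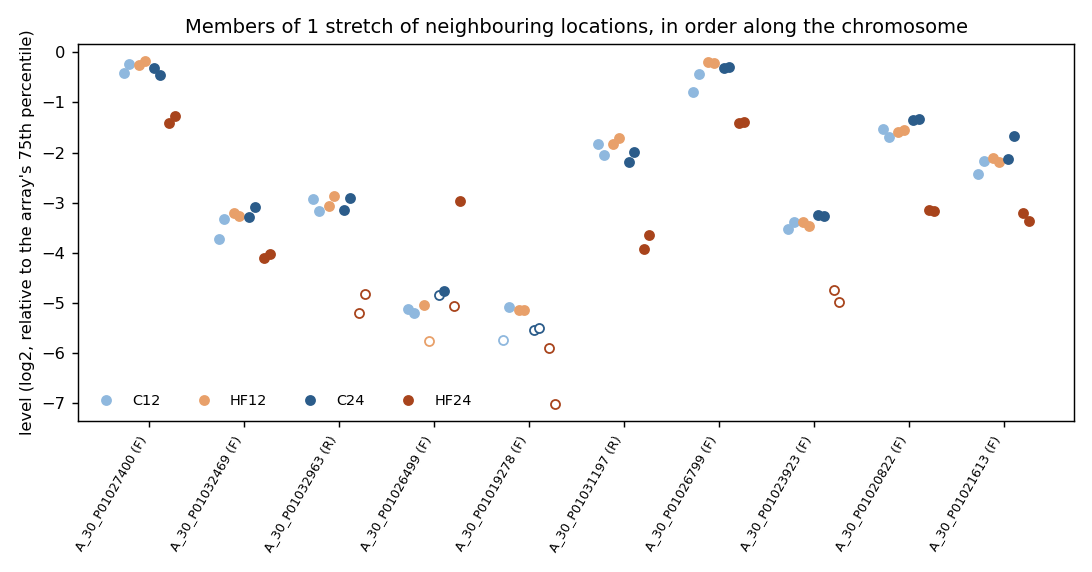
Levels on each array (log2, relative to the 75th percentile) of the 10 members of the stretch with the most members, ordered by the start of their locations and marked F (forward) or R (reverse); colours give the group, filled points are well above background and open points are not. HF24 lies below every array of the other groups in all members but A_30_P01026499, for example at -3.15 and -3.17 for A_30_P01020822.

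Known long non-coding RNAs, from a list of 14 of which 12 were in the fit, give a frame of reference for the members. In HF24 against C24, 9 of the 12 fell and none rose, with a median change of -0.82 against 0.02 over all features, where 18.1% of members and 17.2% of all features were lower. H19, an imprinted RNA of fetal and muscle tissue, was at 4.71 and 4.88 in C24 and 2.84 and 2.80 in HF24, a change of -1.97 (adjusted p = 9e-05), and had been at 5.85 and 5.99 in C12. Meg3, Rian and Mirg, RNAs of 1 imprinted cluster, changed by -1.37, -0.93 and -1.14. Miat changed by -2.27 and Neat1, the scaffold of paraspeckles, by -0.81. In HF12 against C12 3 of the 12 rose, Meg3 by 0.48, Rian by 0.46 and Snhg12 by 0.35, and Dnm3os fell, with a change of -0.58, where 14.1% of all features were higher and 16% lower. From C12 to C24 7 rose and 2 fell, against 24.6% and 21.1% of all features, and from HF12 to HF24 2 rose and 8 fell, against 22.1% and 22.9%.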

How the data were processed

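RNA of 8 samples was hybridised to 1-colour (Cy3) Agilent mouse arrays and read with Agilent Feature Extraction 11.0.1.1, per the submitters' processing notes. The deposited processed intensity is background-subtracted and detrended within an array, per the file headers, with no scaling between arrays; the median and background intensity are unprocessed. The authors' deposited value table holds log2 values that differ from the log2 processed intensity by a constant for each array, from -9.99 to -9.79, with slope 1 and no centring of genes.

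Of 56605 probes, 192 whose spots all had outlier flags on at least 1 array were left out. The spots of a probe without such flags were averaged. Probes well above background on both arrays of at least 1 group were kept. A mean for each of the 4 groups was fitted over 8 arrays in limma 3.58.1 (R 4.3.3), with 4 residual and 1.95 prior degrees of freedom, two-sided tests and Benjamini-Hochberg adjustment over all 37649 features in each comparison. Fold bounds marked "at least" use, per array, the higher of the lowest level flagged well above background and the probe's own level. SE is the standard error of a log2 change. The fit was tested on simulated data for HF12 against C12, with changes given to 50 members of each size and to no other feature. Of changes of 0.5, 1, 2 and 3 log2 units, 4%, 50%, 76% and 92% were called. That setting held far fewer changes than these data.

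Members were named by rule: per comparison the 5 highest and 5 lowest called members measured in both groups and 2 bounded ones each way, 3 each way for the interaction, the 5 brightest, and the 3 locations with the most members (ties broken by the higher mean level); others were chosen after their values were seen. The members and lists were chosen with earlier results of these data known. Gene symbols came from a GRCm38.p6 table for 32994 probes (58.3%); location names are on mm9 and were not matched to genes, and no probe sequence was used here. Python 3.11.15, pandas 2.3.3 and matplotlib 3.10.9 made the tables and figures.

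Alternatives were normexp with an offset of 50 (on the median intensity, as the files used here hold no mean), quantile normalization, the authors' table, no filter or a filter on all 8 arrays, scaling on NM_ probes, 1 value per name, a variance trend, only the groups compared, a replicate block and leaving out each array. The number of arrays limits the precision.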

Additional observations from a re-analysis of the deposited data

Results flagged for a closer look

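For 497 members the change with diet differed between 12 and 24 weeks by the interaction test. Members named in a diet comparison or for their interaction were picked by the size of those same values, so a high share passing was built in. Of these 30 members, 27 passed the interaction test, where 27.9% of all features did. Their interaction values, the log2 change with diet at 24 weeks minus that at 12 weeks, follow first for the 17 that were well above background on both arrays of all 4 groups.

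Among members higher on the fat diet at 12 weeks, the interaction was -2.41 for A_30_P01020239, -1.30 for A_30_P01017482, -2.47 for A_30_P01024579 and -3.23 for A_30_P01028905. The change at 24 weeks was smaller in the first 3 and was a fall in the last. Among members lower at 12 weeks it was 2.42 for A_30_P01030421, 1.83 for A_30_P01032687, 1.39 for A_30_P01027147 and 1.90 for A_30_P01028975.

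Among members lower at 24 weeks it was -2.71 for A_30_P01022510, -3.28 for A_30_P01027500, -2.46 for A_30_P01027893, -2.48 for A_30_P01024275 and -1.29 for A_30_P01019232. All of these but A_30_P01019232 had their highest level in C24. Among members higher at 24 weeks or named for their interaction it was 1.87 for A_30_P01033650, 1.54 for A_30_P01021715, 1.81 for A_30_P01019507 and 2.44 for A_30_P01019709. A_30_P01019006, of the same name as A_30_P01033650, had an interaction of -0.28 (SE 0.17, adjusted p = 0.27).

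The other 10 had at least 1 group that was not well above background on both arrays, so the fitted values below rest in part on levels with no reliable order, and neither a size nor a bound is read from them. They were -3.69 for A_30_P01031842 and -4.16 for A_30_P01019442, both not detected in HF24, and -3.22 for A_30_P01021359, not detected in C12. They were -2.80 for A_30_P01028951, detected in HF12 only, 3.50 for A_30_P01026149 and 2.47 for A_30_P01017440, detected in C12 only, and 2.58 for A_30_P01028806, detected at 12 weeks only. They were 3.8 for A_30_P01030160, detected in HF24 only, -4.09 for A_30_P01018170, detected in C24 only, and -3.59 for A_30_P01030091, detected on both C24 arrays and 1 C12 array.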

How the results depend on the processing

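No named call changed sign under any alternative that was run, but the balance of higher and lower calls among members turned in some: with no filter on dim probes to 897 higher and 463 lower for C24 against C12 and 854 and 549 for HF24 against HF12, and with 1 array left out for HF12 against C12 to 149 and 142 (HF12 replicate 1) and 215 and 213 (C12 replicate 2). Without HF12 replicate 1 the median change of members minus that of NM_ probes in that comparison went from -0.0153 to 0.0160, within the replicate SD of 0.0458. The count of members called moved by more than 1.5 times in these cases: with no filter on dim probes to 1360 for C24 against C12 and 1403 for HF24 against HF12, and with 1 array left out over a range of 291 to 522 for HF12 against C12 (main 511) and 541 to 833 for HF24 against HF12 (main 817). Leaving out 1 array moved the higher calls by more than 1.5 times to 126 in HF12 against C12 (HF12 replicate 2), 88 in HF24 against C24 (C24 replicate 1), 135 in HF24 against HF12 (HF12 replicate 1) and 90 in the interaction (HF12 replicate 1). It moved the lower calls so to 164 (C12 replicate 1), 142 (HF12 replicate 1) and 196 (HF12 replicate 2) in HF12 against C12 and 357 (HF12 replicate 2) in HF24 against HF12. The median change of members minus that of NM_ probes moved, for HF24 against C24, from -0.0928 to -0.0119 with normexp, -0.00454 with quantile normalization and -0.0360 with no filter, and for HF24 against HF12 from -0.129 to -0.0269, -0.0280 and -0.0806. Arrays of equal replicate number deviated little together, with correlations across groups between -0.0911 and 0.155. With 2 arrays a group these values cannot exclude a pairing. With the replicate number as a block the counts were 462 (HF12 against C12), 605 (HF24 against C24), 796 (C24 against C12), 789 (HF24 against HF12) and 430 (interaction), and all 62 named calls were kept. Named calls were lost under some alternative for A_30_P01019442, A_30_P01031842, A_30_P01031581, A_30_P01020933 and A_30_P01019709. With 2 arrays a group, leaving 1 out assumes that the lone array varies like the other groups. Levels near the lowest flagged level have no reliable order, and changes of dim members may go uncalled. In the simulated data 76% of the changes of 2 log2 units given to members were called.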

Other observations

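Other stretches of neighbouring members moved as blocks, again chosen after their calls were seen. The stretch around the 17.4 kb location holds 9 members at 3 locations over 62.6 kb. Of these, 7 were lower in HF12 than in C12 and 7 lower in HF24 than in C24, against 16% and 17.2% of all features. The median changes of the stretch were -0.52 and -0.48. Its brightest member, A_30_P01024163, was at 4.82 and 4.82 in C12, 4.21 and 4.25 in HF12, 4.84 and 4.88 in C24 and 4.36 and 4.39 in HF24, so all fat-diet arrays lay below all chow arrays. The changes with diet were -0.59 (SE 0.05, adjusted p = 0.00062) and -0.48 (SE 0.05, adjusted p = 0.0016) in the same fit, and those with time, 0.04 and 0.15, were not called. In another stretch, 5 members at 5 locations over 32.2 kb were all higher in HF24 than in HF12, by 0.44 to 0.52, where 22.1% of all features were. All 5 were bright, with A_30_P01020514 rising from 5.29 and 5.30 to 5.72 and 5.74. In a stretch of 6 members over 51.0 kb, 5 were higher in C24 than in C12, against 24.6% of all features. Its 3 forward probes, A_30_P01030592, A_30_P01031383 and A_30_P01028739, were also higher in HF12 than in C12, by 1.29, 1.79 and 1.44, whereas its 3 reverse probes changed there by 0.02, 0.08 and -0.28.

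At the edge of the detection rule, 69 members were well above background on exactly 2 arrays, both of 1 group, and 76 location-named probes were so on 2 arrays of different groups and are not members. The highest level over the 8 arrays had a median of -4.85 in those 69 and of -4.90 in the 380 probes outside the rule with 1 to 4 such arrays.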
